A study of Mus musculus with 8 samples.

Results

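Complex III, complex IV and the ATP synthase are the last 3 protein complexes of mitochondrial respiration, and 38 nuclear genes for their subunits and for cytochrome c were followed here in mouse soleus, a slow postural muscle. Genes were taken by name from the array's own annotation. A probe was found for 37 of the 38, out of 22300 genes tested, and Cox5b had no spot under that name. The data are 8 Agilent arrays of total RNA from male C57BL/6J mice aged 14 weeks, with no engineered allele named in the labels, and every mouse ate the chow labelled High-fat diet 32. The 4 P. gingivalis samples came from mice given Porphyromonas gingivalis, a bacterium of human gum disease, in 100 µL of saline through a feeding needle, and the 4 saline samples from mice given saline alone. Dosing began at 8 weeks of age and ran for 6 weeks. The question posed by the labels is how oral administration changes gene expression in this muscle.

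Electrons reach complex III from ubiquinol, pass to the mobile carrier cytochrome c, and are handed by complex IV to oxygen. Complexes III and IV pump protons as they work, and the ATP synthase lets the protons return through its membrane part, Fo, to drive ATP formation in its catalytic head, F1. Slow muscle relies on this route for sustained contraction, and several complex IV subunits exist as a muscle form and a more widely expressed form.

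A single slide and a single scan held all 8 arrays. In the array barcodes, the number that follows the slide number was 1 for the P. gingivalis arrays and 2 for the saline arrays. What this number stands for was not established, and it cannot be told apart from treatment. Whether the arrays stand for separate mice is not stated in the labels, and p-values below cover only the spread among these samples, which may be technical. The 75th percentile of the processed signal was 648 to 764 intensity units, and 30215 to 34114 probes were well above background on the saline arrays against 34859 to 35401 on the P. gingivalis arrays. P. gingivalis 2 had the lowest percentile and was marked for evaluation in its file header. The slow fibre genes Myh7, Myl2 and Tnnt1 and the skeletal muscle genes Acta1 and Ckm were well above background on all 8 arrays. That does not tell the soleus from other skeletal muscle. Groups were taken from the sample records. In the authors' deposited table the group names are exchanged, with 8 of 8 columns matching the array of the same number in the other group, so every direction below would be turned if that table were right.

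Levels are given as log2 processed signal minus the array's 75th percentile, and a difference is P. gingivalis minus saline on that log2 scale with n = 4 and 4. None of the 37 genes had an adjusted p under 0.05 by limma, fitted over all genes, where 26 of 22300 genes (0.117%) did. Their adjusted p ran from 0.219 to 0.990, with 6 genes (16.2%) at an unadjusted p under 0.05, against 19.7% of all genes. Differences were small. The median was 0.06 against -0.01 over all genes, and 30 of the 37 lay above 0 (81.1%, against 47.7% of all genes), but under quantile normalization, which gives all arrays the same distribution, 11 of 37 did (29.7%, against 52.7% of all genes) and the median was -0.05. For the probe used for each gene on the 75th percentile scale, the lowest bound of any 95% confidence interval was -0.42, for Cox6a1. The highest was 0.36, for Atp5b, and the bounds correspond to changes of 1.34-fold down and 1.29-fold up. They do not cover other probes or scalings. Differences of other probes ran from -0.19 ± 0.07 (SE) for Atp5g1 to 0.33 ± 0.12 (SE) for Atp5j. With each array centred on its median instead, Atp5b was at 0.34. Without P. gingivalis 2, 27 genes lay above 0 on the 75th percentile scale and the median was 0.04.

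**Figure D1:**
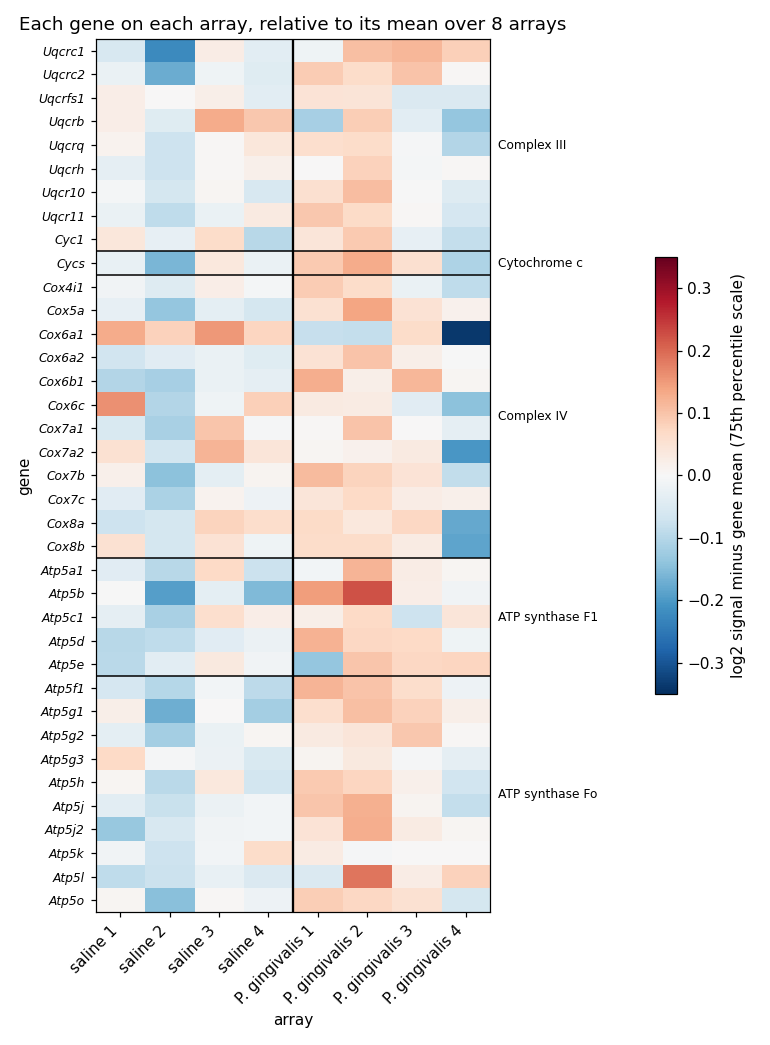
Colour map of the 37 measured genes (vertical axis) on the 8 arrays (horizontal axis), as log2 signal on the 75th percentile scale minus each gene's mean over the arrays, with black lines between complexes and between groups. Saline 2 is blue for most genes and P. gingivalis 2 red, and the darkest cell is Cox6a1 in P. gingivalis 4.

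Complex III was represented by 9 genes, of which 7 lay above 0 on the 75th percentile scale and 2 under quantile normalization, with medians of 0.04 and -0.06. The 2 core proteins that form the matrix side of the complex had its highest differences. Uqcrc1 read 7.33, 7.17, 7.42 and 7.35 in saline 1 to 4 and 7.37, 7.49, 7.51 and 7.47 in P. gingivalis 1 to 4. Only P. gingivalis 1 lay within the saline range, and the difference was 0.15 ± 0.07 (SE), adjusted p = 0.285 by limma. For Uqcrc2 the saline arrays read 7.30, 7.15, 7.31 and 7.28 and the P. gingivalis arrays 7.41, 7.39, 7.42 and 7.33. The groups did not overlap, with saline 2 the lowest array, and the difference was 0.13 ± 0.06 (SE), adjusted p = 0.262 by limma. Both stayed above 0 under quantile normalization, at 0.08 and 0.06.

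Among the nuclear-encoded electron carriers of complex III, the differences of the probes used were smaller than their SE. Uqcrfs1, the Rieske iron-sulfur protein, ranged from 6.73 to 6.80 in saline and from 6.72 to 6.82 in P. gingivalis, with a difference of -0.0030 ± 0.05 (SE). Cyc1, cytochrome c1, had a difference of 0.01 ± 0.06 (SE), and -0.08 under quantile normalization, but its other probe was at 0.11 ± 0.06 (SE). Among the small subunits, Uqcrb, which helps bind ubiquinone, was at -0.10 ± 0.07 (SE), while its other probes ran from -0.04 to 0.16. Uqcrq was at 0.01, the hinge protein Uqcrh at 0.04, Uqcr10 at 0.06 and Uqcr11 at 0.05, and each of these 4 turned negative under quantile normalization, at -0.13, -0.09, -0.06 and -0.05. The other Uqcr10 probe was at 0.01.

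Cytochrome c, encoded by Cycs, read 7.61, 7.47, 7.67 and 7.61 in saline and 7.72, 7.76, 7.69 and 7.52 in P. gingivalis. P. gingivalis 4 lay among the saline arrays and the other 3 above them. Its difference was 0.08 ± 0.07 (SE), adjusted p = 0.544 by limma, and -0.01 under quantile normalization, with the other probe at 0.0062.

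Complex IV held the widest range of differences, from -0.22 for Cox6a1 to 0.14 for Cox6b1. Of its 12 measured genes, 7 lay above 0 with a median of 0.03, against 3 under quantile normalization with a median of -0.11. Cox6a1, the widely expressed form of a regulatory subunit, read 6.28, 6.23, 6.30 and 6.23 in saline and 6.07, 6.07, 6.22 and 5.81 in P. gingivalis. Every P. gingivalis array was below every saline array, P. gingivalis 3 narrowly so and P. gingivalis 4 by the most. The difference was -0.22 ± 0.09 (SE), a change of -14.1%, with adjusted p = 0.219 by limma, and it was -0.26 under quantile normalization. Without P. gingivalis 4 the difference was -0.14.

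Cox5a and Cox6b1 lay on the other side of 0. Cox5a, a subunit on the matrix side, read 8.30, 8.19, 8.29 and 8.27 in saline and 8.38, 8.46, 8.38 and 8.34 in P. gingivalis. Its groups did not overlap and the difference was 0.13 ± 0.05 (SE), adjusted p = 0.230 by limma, but it was -0.0031 under quantile normalization. Cox6b1, which faces the intermembrane space, read 5.30, 5.29, 5.38 and 5.37 in saline and 5.53, 5.42, 5.52 and 5.41 in P. gingivalis. All 4 P. gingivalis arrays were higher, with a difference of 0.14 ± 0.05 (SE) and adjusted p = 0.231 by limma, and 0.11 under quantile normalization. Cox4i1, the common form of the largest nuclear subunit, ran from 8.16 to 8.23 in saline and from 8.12 to 8.30 in P. gingivalis, reading 8.19, 8.16, 8.23 and 8.20 and then 8.30, 8.27, 8.18 and 8.12. The P. gingivalis arrays spanned the whole saline range, and the difference was 0.02 ± 0.06 (SE), or -0.10 under quantile normalization. The small membrane subunits Cox7b and Cox7c were at 0.08 each and Cox6c at -0.06, with groups that did not overlap for Cox7c, whose other probe was at 0.02.

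The ATP synthase head, F1, had 5 of 5 genes above 0 on the 75th percentile scale, with a median of 0.07, but 2 of 5 under quantile normalization, with a median of -0.07. Atp5b, the catalytic beta subunit, had the largest positive difference of all 37 genes. It read 8.32, 8.13, 8.29 and 8.17 in saline and 8.46, 8.54, 8.34 and 8.31 in P. gingivalis. Saline 1 stood just above P. gingivalis 4, the only overlap. The difference was 0.19 ± 0.08 (SE), a change of 14.03%, with adjusted p = 0.224 by limma, and 0.05 under quantile normalization. Its other probes gave 0.15 and 0.32.

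Atp5d, the delta subunit of the central stalk, read 6.47, 6.48, 6.52 and 6.54 in saline and 6.69, 6.64, 6.63 and 6.55 in P. gingivalis. The groups touched without overlapping, at saline 4 and P. gingivalis 4, and the difference was 0.12 ± 0.05 (SE), adjusted p = 0.243 by limma, and 0.10 under quantile normalization. The alpha subunit gene Atp5a1 (0.07), the gamma subunit gene Atp5c1 (0.03) and the epsilon subunit gene Atp5e (0.05) had groups that overlapped, and all 3 were negative under quantile normalization, between -0.08 and -0.07. The other Atp5a1 probe was at 0.21 ± 0.06 (SE). Atp5e stood apart in P. gingivalis 1, at 8.06 against 8.27 to 8.29 on the other 3 arrays of the group.

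The membrane part and side stalk of the ATP synthase had 10 of 10 genes above 0 on the 75th percentile scale, with a median of 0.08, but 4 of 10 under quantile normalization, with a median of -0.02. Atp5f1, subunit b of the side stalk, read 7.11, 7.07, 7.16 and 7.08 in saline and 7.29, 7.27, 7.23 and 7.16 in P. gingivalis. Saline 3 was slightly above P. gingivalis 4 and the other arrays separated. The difference was 0.13 ± 0.05 (SE), adjusted p = 0.230 by limma, its 2 other probes gave 0.19 and 0.24, and the value under quantile normalization was 0.07. For the rest of the side stalk, Atp5h (subunit d) was at 0.06, Atp5j (coupling factor 6) at 0.07 and Atp5o, which joins the stalk to F1, at 0.08, each between -0.05 and -0.02 under quantile normalization. Other probes gave -0.0094 and 0.12 for Atp5h, 0.33 ± 0.12 (SE) for Atp5j and -0.01 for Atp5o.

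The genes Atp5g1, Atp5g2 and Atp5g3 encode the same mature subunit c, the rotating ring of Fo. Atp5g1 read 8.29, 8.10, 8.28 and 8.15 in saline and 8.33, 8.38, 8.35 and 8.29 in P. gingivalis. Saline 2 and 4 were low, saline 1 and P. gingivalis 4 nearly equal, and the difference was 0.13 ± 0.06 (SE), adjusted p = 0.274 by limma. Its other probes disagreed, running from -0.19 to 0.05. Atp5g2 read 7.38, 7.29, 7.39 and 7.42 against 7.45, 7.45, 7.51 and 7.42, a difference of 0.09 ± 0.05 (SE). Atp5g3 read 7.89, 7.81, 7.80 and 7.76 against 7.83, 7.85, 7.81 and 7.78, a difference of 0.0043 ± 0.05 (SE), with another probe at 0.27. Under quantile normalization the 3 genes were at 0.02, 0.01 and -0.09. The small membrane subunits Atp5j2, Atp5k and Atp5l were at 0.10, 0.02 and 0.12, with other probes at -0.17, 0.05 and 0.11, and under quantile normalization at 0.04, -0.09 and -0.02.

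**Figure D2:**
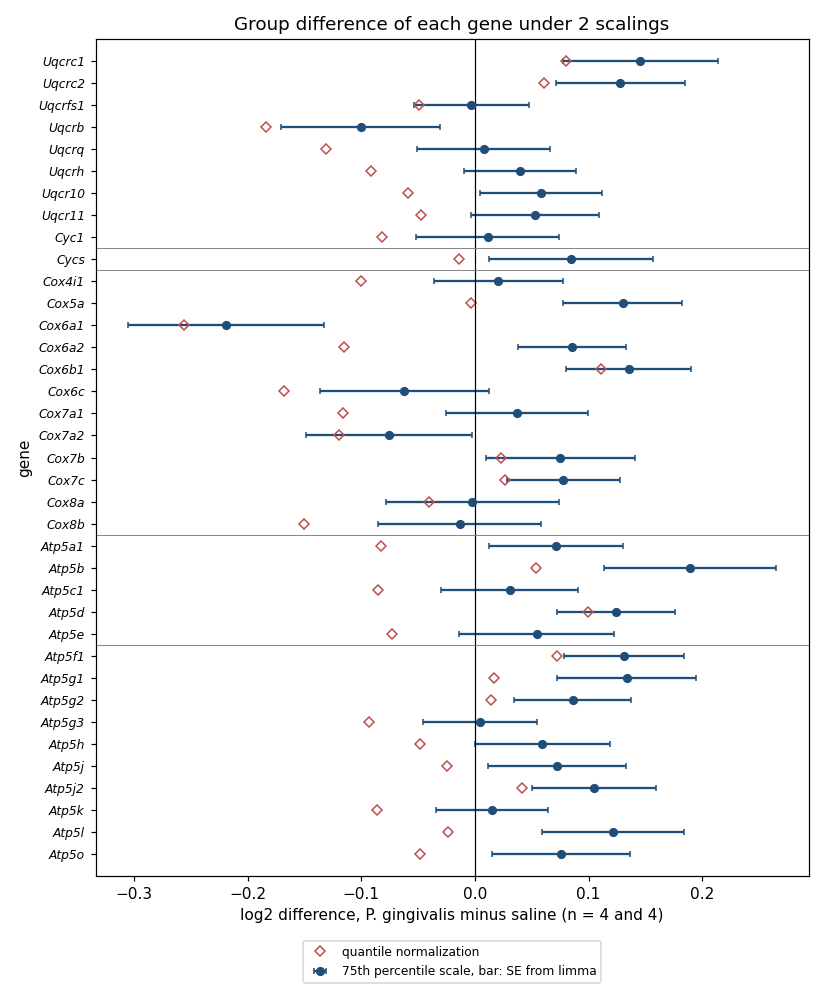
Difference of each of the 37 genes (vertical axis) between 4 P. gingivalis and 4 saline arrays on the log2 scale (horizontal axis); filled points with bars are the 75th percentile scale with limma's SE and open diamonds are quantile normalization. The diamonds lie to the left of the points, and 19 genes have opposite signs under the 2 scalings.

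The 6 genes at an unadjusted p under 0.05 in limma's fit were Atp5b, Cox5a, Atp5f1, Cox6b1 and Atp5d above 0 and Cox6a1 below 0. Under quantile normalization 4 genes were at that level (10.8%, against 21.4% of all genes), Uqcrb, Uqcrq, Cox6a1 and Cox6a2, all below 0, with adjusted p of 0.115 or more. Groups did not overlap with P. gingivalis higher for 7 genes (Uqcrc2, Cox5a, Cox6a2, Cox6b1, Cox7c, Atp5d and Atp5j2), 18.9% against 7.34% of all genes. They did not overlap with P. gingivalis lower for Cox6a1 alone, 2.70% against 6.09%. Centring each array on its median instead gave 8 of the 37 genes past an adjusted p of 0.05 by limma (21.6%), against 10.7% of all genes, namely Uqcrc2, Cox5a, Cox6a2, Cox6b1, Atp5b, Atp5d, Atp5f1 and Atp5g1. That scaling also moved the median of all genes to 0.14, and the 37 genes then had a median of 0.21.

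Under the 75th percentile and quantile scalings alike, the sign was the same for 11 genes above 0 (Uqcrc1, Uqcrc2, Cox6b1, Cox7b, Cox7c, Atp5b, Atp5d, Atp5f1, Atp5g1, Atp5g2 and Atp5j2) and 7 below 0. All 37 genes were well above background on all 8 arrays with 0 saturated spots, and all lay in the brightest of 10 equal bins of mean signal. In that bin the median difference over all genes was 0.02 on the 75th percentile scale and -0.01 under quantile normalization, while in the dimmest bin it was -0.04 and 0.12. Of the 1057 genes as bright as the dimmest of the 37 or brighter, 66.4% lay above 0 on the 75th percentile scale, with a median of 0.04, and 44.8% under quantile normalization. The part of signal level in the differences was not tested.

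**Figure D3:**
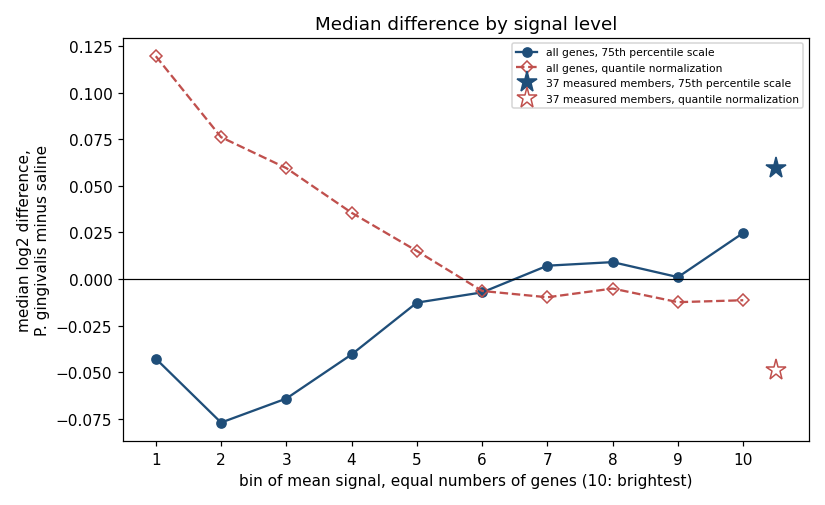
Median log2 difference, P. gingivalis minus saline (vertical axis), of all genes in 10 equal bins of mean signal (horizontal axis, 10 the brightest), for the 75th percentile scale (filled, solid) and quantile normalization (open, dashed), with stars for the 37 measured genes. The stars lie at 0.06 and -0.05, above and below the values of the brightest bin, 0.02 and -0.01.

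The difference between 2 isoform genes on the same array does not move with a scaling by 1 factor per array, and 6 pairs were compared, 3 of a muscle form with its widely expressed counterpart and 3 among the subunit c genes. The 9 probes concerned are 60 bases long. Their first 30 bases are printed in lower case, 5′ to 3′, to show how unlike the paired probes are: within the 6 pairs the longest run of bases shared by the full probes was 4 to 6.
Cox6a1: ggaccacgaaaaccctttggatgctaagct
Cox6a2: agcaatcttcaaattggccttctgcacacc
Cox7a1: acaacgtcctgtacagactgaccatgacgc
Cox7a2: ttcccaagaagcagaactaatgtcgtcatc
Cox8a: tattggctctgcttggtggggtcccccttt
Cox8b: ctataaaaagagctccgcagcatgaagttg
Atp5g1: tgccagtcctggtgctggagtctactgagc
Atp5g2: atggttctttcgtgtctcgtctgccctgta
Atp5g3: ccgaagactgtagtactggtgtcatggaaa

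Per the array files, in mouse build mm9 the Cox6a1 probe lies at chr5:115795726-115795785 and the Cox6a2 probe at chr7:135349160-135349219. The Cox7a1 probe spans chr7:30970337-30970948, a stretch longer than the probe itself, and the Cox7a2 probe is listed at chr9:79603048-79603072. Cox8a is probed at chr19:7289652-7289708 and Cox8b at chr7:148084852-148084911. Those of Atp5g1, Atp5g2 and Atp5g3 lie at chr11:95934315-95934374, chr15:102493359-102493418 and chr2:73746519-73746578. The Cox7a1 probe is on the plus strand and the other 8 on the minus strand. Exon and UTR annotation of that build was not used here.

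Cox6a2 minus Cox6a1 had the largest group difference of the 6 pairs. Cox6a2, the heart and muscle form, read 9.03, 9.06, 9.08 and 9.06 in saline and 9.15, 9.20, 9.12 and 9.10 in P. gingivalis, with a difference of 0.09 ± 0.05 (SE) on the 75th percentile scale and -0.11 under quantile normalization. The within-array difference was 2.75, 2.83, 2.77 and 2.83 in saline and 3.08, 3.13, 2.90 and 3.29 in P. gingivalis. The groups did not overlap, and P. gingivalis 4 was the highest. The P. gingivalis mean was higher by 0.30 ± 0.08 (SE), exact permutation p = 0.0286, two-sided, the smallest the 70 assignments allow, and 0.0857 adjusted over the 6 pairs. Under quantile normalization it was higher by 0.14 with exact permutation p = 0.0857.

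For Cox7a1, the muscle form, minus Cox7a2 the group difference was smaller. Cox7a1 read 8.44, 8.38, 8.59 and 8.49 in saline and 8.50, 8.60, 8.50 and 8.47 in P. gingivalis. Cox7a2 read 7.11, 6.99, 7.18 and 7.10 in saline and 7.06, 7.07, 7.09 and 6.85 in P. gingivalis. Both genes overlapped between groups. Between groups the pair stood 0.11 ± 0.05 (SE) apart, exact permutation p = 0.0571 and 0.114 adjusted, and 0.0032 under quantile normalization. For Cox8b, the muscle form, minus Cox8a the value was -0.01 ± 0.05 (SE), exact permutation p = 0.8286, and it was -0.11 under quantile normalization, exact permutation p = 0.0571, and -0.14 with normexp and quantile normalization together, the steps that rebuild the authors' table.

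Cox8a read 6.24, 6.25, 6.39 and 6.38 in saline and 6.38, 6.35, 6.39 and 6.13 in P. gingivalis, and Cox8b read 8.69, 8.57, 8.69 and 8.62 and then 8.70, 8.70, 8.66 and 8.45. P. gingivalis 4 was the lowest array for both, as it was for Cox6a1 and Cox7a2. Among the subunit c genes, Atp5g1 minus Atp5g3 had a group difference of 0.13 ± 0.04 (SE) with groups that did not overlap, exact permutation p = 0.0286 and 0.0857 adjusted. It was turned to -0.14 when all probes of each gene were averaged. Atp5g1 minus Atp5g2 and Atp5g2 minus Atp5g3 were at 0.05 and 0.08, with exact permutation p of 0.343 and 0.171. None of the 6 pairs passed an adjusted p of 0.05.

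**Figure D4:**
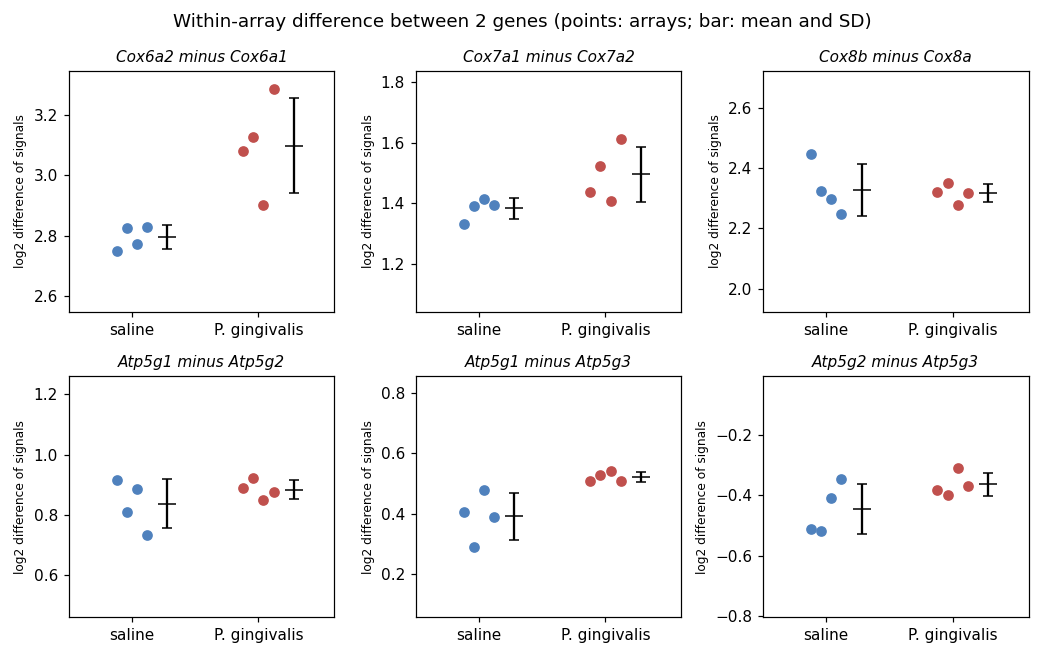
Within-array log2 difference of 2 genes (vertical axis) for the 6 pairs, 1 point per array by group, with the mean and SD (n = 4 and 4) beside the points. The groups separate for Cox6a2 minus Cox6a1 (saline 2.75 to 2.83, P. gingivalis 2.90 to 3.29) and for Atp5g1 minus Atp5g3. The sign of the latter turned when all probes of each gene were averaged.

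With group means removed, the correlation of each gene with the median of the others over the 8 arrays had a median of 0.76 and ran from -0.11 (Atp5e) to 0.98, as a description, since the genes share each array's scaling. The median of the 37 genes relative to each gene's mean was lowest in saline 2 (-0.09) and highest in P. gingivalis 2 (0.08), and in P. gingivalis 4 it was -0.03, below saline 1, 3 and 4. Under quantile normalization the highest was saline 1 (0.05) and the lowest P. gingivalis 2 (-0.05).

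Genes that work beside these subunits also had 0 members past the threshold in limma's fit, in all 9 lists examined. The mitochondrially encoded subunits had 10 of 11 above 0 with a median of 0.13, led by ND1 (0.29, adjusted p = 0.116) and ND4L (0.28, adjusted p = 0.0678), both of complex I, but 4 of 11 under quantile normalization with a median of -0.01. Of the 13 listed, COX3 and ATP6 were not measured. For the complexes followed here, CYTB was at 0.18, COX1 and COX2 at 0.07 each and ATP8 at 0.14. Under quantile normalization they were at -0.01, -0.09, -0.07 and 0.04. Nuclear complex I genes had 25 of 36 above 0 with a median of 0.02, such as Ndufv2 at 0.21 and Ndufb3 at -0.15, and 10 of 36 under quantile normalization. Complex II had 3 of 4 above 0, with Sdha at 0.14 and Sdhd at -0.10, and 2 of 4 under quantile normalization. The carriers that supply the ATP synthase and the outer membrane channels had 4 of 6 above 0, with the ADP/ATP carrier Slc25a4 at 0.22 and the channel Vdac3 at 0.12, and 3 of 6 under quantile normalization.

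Assembly factors were mixed in sign. Complex III assembly factors had 2 of 7 above 0, with Lyrm7, which handles the Rieske protein, at -0.41 ± 0.12 (SE), adjusted p = 0.145 by limma, and Uqcc1 at 0.13. Complex IV assembly factors had 12 of 25 above 0 with a median of -8.9e-05, from Pet117 at -0.43 (adjusted p = 0.0695 by limma) to Coa7 at 0.33 (adjusted p = 0.0896). ATP synthase assembly factors had 4 of 5 above 0, with 1110001J03Rik at -0.14 and Tmem242 at 0.11. Other isoforms and associated subunits split 5 and 5, with Cox7b2 at 0.48 ± 0.45 (SE) and Ndufa4 at 0.10. Of the nuclear regulators of respiratory genes, 5 of 13 were above 0, with the coactivators Ppargc1a at 0.36 ± 0.23 (SE) and Ppargc1b at -0.29 ± 0.13 (SE). For these 5 lists the counts above 0 under quantile normalization were 1 of 7, 11 of 25, 4 of 5, 3 of 10 and 5 of 13. Pet117, Lyrm7 and Cox7b2 were dim, with saline means of -3.60, -2.67 and -5.40, within bins 1 to 3 of mean signal. Under quantile normalization their differences were -0.28, -0.29 and 0.83.

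NRF-1, nuclear respiratory factor 1, binds a palindromic DNA element found at many respiratory genes. Its 10-letter palindrome, which reads the same on both strands, was searched for in RefSeq promoters of build GRCm38.p6, from 250 bases before to 50 after each gene's start. Of the 38 genes, 29 had a promoter in the table. The palindrome was counted in 4 of these, with any match at Atp5a1 left out of the count. It was found in 1.07% of the 27025 genes with a promoter. That share had no such exclusion, so the count and the share are not like for like. The 30 bases around each counted match are shown on the gene's strand, with the palindrome in capitals.
Uqcrc1: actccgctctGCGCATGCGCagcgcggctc
Cox6a1: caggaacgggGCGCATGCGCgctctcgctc
Atp5g2: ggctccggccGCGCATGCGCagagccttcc
Atp5k: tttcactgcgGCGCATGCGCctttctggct

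These stretches lie in GRCm38.p6 at chr9:108936668-108936697 (plus strand) for Uqcrc1, chr5:115349101-115349130 (minus) for Cox6a1, chr15:102671070-102671099 (minus) for Atp5g2 and chr5:108434430-108434459 (minus) for Atp5k. The match begins 30 bases after the gene's start in Uqcrc1, and before it in the other 3. The 4 genes had differences of both signs, 0.15, -0.22, 0.09 and 0.02 on the 75th percentile scale, from Uqcrc1 and Cox6a1 to Atp5g2 and Atp5k. A match of letters is a description of the sequence and not a binding site.

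Markers of muscle fibres and of other cell types were read beside these genes. In bulk muscle, fewer cells of a type and less RNA per cell cannot be told apart. Slow fibre genes had 9 of 10 above 0 (median 0.12) and fast fibre genes 11 of 12 (0.17), and 7 of 10 and 9 of 12 under quantile normalization (medians of 0.02 and 0.08). Their summed log2 levels were 11.67 to 11.77 in saline and 11.80 to 11.93 in P. gingivalis for slow fibre genes, and 11.52 to 11.72 and 11.65 to 12.01 for fast fibre genes. These sums hide uneven fast fibre genes within both groups. Myh4 read 1.95, 7.63, 7.70 and 4.98 in saline 1 to 4. In P. gingivalis 1 to 4 it read 6.76, 7.66, 4.03 and 7.11. Actn3, Pvalb and Mybpc2 were likewise lowest in saline 1 and in P. gingivalis 3 within their groups. Red blood cell markers had 8 of 9 above 0 (median 0.57, summed 8.44 to 10.16 in saline and 9.58 to 10.27 in P. gingivalis).

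Macrophage markers had 1 of 11 above 0 (median -0.28, summed 3.89 to 5.49 and 3.88 to 4.68) and neutrophil markers 0 of 6 (median -0.94, summed 0.23 to 1.94 and 0.05 to 0.22), or 1 of 6 under quantile normalization. Of the 9 neutrophil markers listed, 6 were measured, and Mmp8 and Cxcr2 lay in the dimmest of the 10 bins of mean signal. S100a8 was uneven in saline, at -0.69, -1.13, -4.30 and -2.54 in saline 1 to 4, against a P. gingivalis mean of -4.37. Endothelial markers had 3 of 10 above 0 (median -0.13, summed 5.86 to 5.95 and 5.50 to 5.72), Schwann cell markers 2 of 9 (-0.19, summed 4.30 to 4.41 and 4.05 to 4.39), and smooth muscle markers 6 of 8 (0.16, summed 8.43 to 8.56 and 8.59 to 8.78). Adipocyte markers had 4 of 8 above 0 (median -0.02, summed 7.12 to 7.51 and 7.27 to 7.42) and fibroblast markers 4 of 9 (-0.02, summed 7.26 to 7.71 and 7.15 to 7.72). None of these 10 lists had a member past the threshold in limma's fit. Their part in the differences of the respiratory genes was not tested.

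The authors' deposited table held 49 entries for the 37 genes, and 0 of them had an adjusted p under 0.05, the smallest being 0.0757, while 431 of its 28250 entries did. Of the 49 log2 differences in the authors' deposited table, 27 were above 0 and 22 below, with a median of 0.03 under that table's own group names, which are the exchanged ones.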

How the data were processed

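Total RNA of 8 soleus samples was measured on 1-colour Agilent arrays from 200 ng of RNA labelled with Cy3. The deposited spot intensity values came, per the file headers, from Agilent Feature Extraction 11.0.1.1 with probe positions in mm9, while the submitters' processing notes list version 11.1. Control spots were left out, as were outlier-flagged spots (466 probes on at least 1 array). Processed signal was converted to log2, the array's 75th percentile subtracted and spots of 1 probe averaged. Probes well above background on at least 4 of 8 arrays and with a value on at least 6 were kept (33758), and the kept probe with the highest mean represented each of 22300 gene names, as the files give them. limma 3.58.1 in R 4.3.3 compared the groups (lmFit and eBayes, no covariate, two-sided, Benjamini-Hochberg over all genes). Isoform pairs were tested by exact permutation over the 70 assignments with SciPy 1.17.1. Tested on simulated data for this comparison (22300 genes), the fit recovered 46% of the genes given a log2 change of 0.5 and 84% at 1, with 10 false calls. Changes below 0.5 were not simulated, and noise was drawn for each gene separately. These rates therefore do not cover differences of the size seen in the 37 genes.

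The authors' deposited table gives log2 values and p-values, and its scores were not used. No header or label records how it was made. Rebuilding it from the scanner files by normexp (offset 16) and quantile normalization gave the table's size with the sign turned for Cox6a1 (-0.28 against 0.28). Arrays correlated at 0.987 to 0.995 within groups and 0.988 to 0.991 between groups, and 0 were identical. The number of arrays limits the precision. The members and lists were chosen with earlier results of these data known. Array values were given for the 8 members with the smallest p, the isoform pairs and a core member of each complex. Cycs, Atp5e, Uqcrfs1 and single arrays were added after their values were seen. Of other pathway lists, the 2 genes largest in size were named. Mitochondrial genes of the complexes followed here and single neutrophil and fast fibre markers were also added after their values were seen. Alternatives were other scalings, normexp, filters on dim probes, averaged probes, a block on replicate number, array weights, another variance model and leaving out each array.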

Additional observations from a re-analysis of the deposited data

Results flagged for a closer look

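In 86 sets of 4 arrays (74 for single genes and 12 for isoform pairs), 6 held an array far from the other 3 by Dixon's criterion at the 95% level, and chance marks about 1 in 20. For 3 complex IV genes the array was P. gingivalis 4, which read 6.85 for Cox7a2 against 7.06 to 7.09 on the other 3 arrays of its group, 6.13 for Cox8a against 6.35 to 6.39, and 8.45 for Cox8b against 8.66 to 8.70. Atp5e, the epsilon subunit of F1, read 8.06 in P. gingivalis 1 against 8.27 to 8.29. Uqcrh, the complex III hinge protein, read 8.32 in P. gingivalis 2 against 8.23 to 8.24. Atp5o, which joins the side stalk to F1, read 8.04 in saline 2 against 8.17 to 8.20.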

How the results depend on the processing

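None of the 37 genes passed an adjusted p of 0.05 by limma under the alternatives run other than median centring, where 8 did, and where their median was 0.21 against 0.14 for all genes. Genes past the threshold, 26 on the 75th percentile scale, numbered 181 under quantile normalization, 2375 under median centring, 455 with normexp background correction, 348 with the authors' processing rebuilt (normexp with an offset of 16, then quantile normalization), 262 with only probes above background throughout the 8 arrays, 5174 with no filter on dim probes, 9 with the mean of all kept probes, 554 with trended and robust variance, 198 with array weights and 2 to 7 with 1 array left out. Numbers shared between groups gave correlations of 0.0645, -0.058, -0.0415 and 0.2332 between same-numbered arrays. Between the other saline and P. gingivalis arrays the correlations ran from -0.1955 to 0.1629. So few values cannot settle whether the numbers pair the samples. With the replicate block limma called 0 genes (4440 before adjustment), and no call among the 37 genes differed.

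The count above 0 was 30 of 37 on the 75th percentile scale, 11 under quantile normalization and 13 with the authors' processing rebuilt, with medians of -0.049 and -0.075 in the last 2, and 27 to 33 with medians of 0.040 to 0.083 with 1 array left out. Under quantile normalization these genes took the other sign: Uqcrq -0.13, Uqcrh -0.091, Uqcr10 -0.059, Uqcr11 -0.048, Cyc1 -0.081, Cycs -0.014, Cox4i1 -0.10, Cox5a -0.0031, Cox6a2 -0.11, Cox7a1 -0.12, Atp5a1 -0.082, Atp5c1 -0.085, Atp5e -0.073, Atp5g3 -0.093, Atp5h -0.049, Atp5j -0.025, Atp5k -0.086, Atp5l -0.024 and Atp5o -0.049. With the authors' processing rebuilt the genes and pairs with the other sign were Uqcrq -0.11, Uqcrh -0.11, Uqcr10 -0.085, Uqcr11 -0.10, Cyc1 -0.075, Cycs -0.048, Cox4i1 -0.13, Cox6a2 -0.11, Cox7a1 -0.16, Atp5a1 -0.14, Atp5c1 -0.14, Atp5e -0.053, Atp5g3 -0.17, Atp5h -0.041, Atp5k -0.092, Atp5l -0.099, Atp5o -0.097, Cox7a1 minus Cox7a2 -0.0067 and Atp5g1 minus Atp5g2 -0.010. Median centring turned Uqcrfs1 0.15, Uqcrb 0.048, Cox6c 0.087, Cox7a2 0.073, Cox8a 0.15 and Cox8b 0.14. Normexp turned Cox8a 0.021, Cox8b 0.044, Atp5g3 -0.021 and Cox8b minus Cox8a 0.023. The mean of all kept probes turned Uqcrb 0.0052, Atp5g1 -0.0019, Atp5j2 -0.032, Atp5g1 minus Atp5g2 -0.088, Atp5g1 minus Atp5g3 -0.14 and Atp5g2 minus Atp5g3 -0.051. Array weights turned Uqcrfs1 0.0024, Cox8a 0.011 and Cox8b 0.0035. The cause was not tested.

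With 1 array left out, values that crossed 0 ran from -0.0018 to 0.060 for Atp5c1, -0.013 to 0.029 for Atp5g3, -0.0065 to 0.039 for Atp5k, -0.0057 to 0.054 for Cox4i1, -0.027 to 0.057 for Cox8a, -0.037 to 0.046 for Cox8b, -0.019 to 0.041 for Cyc1, -0.019 to 0.013 for Uqcrfs1, -0.015 to 0.044 for Uqcrq and -0.038 to 0.028 for Cox8b minus Cox8a. Cox6a1 ran from -0.28 to -0.14, the last without P. gingivalis 4, and Cox6a2 minus Cox6a1 from 0.24 to 0.37. With 3 arrays against 4 the exact permutation test cannot go below p = 0.0571. All 37 genes were well above background on the 8 arrays.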
